A study of Mus musculus with 5 samples.

Results

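The aortic T cells outside the largest T cell subtype formed 3 small subtypes, TC2, TC3 and TC4. The members were every cell of the aorta table that the authors' annotation calls a T cell and whose subtype name is not TC1. They numbered 163 of 5600 aortic cells and 163 of 308 T cells. TC2 held 85 cells, TC3 held 52 and TC4 held 26, beside 145 cells of TC1.

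The study is a single-cell RNA-seq series on liver epsins and blood lipids in mouse atherosclerosis, and its aorta data are 2 droplet libraries, 1 labelled DKO and 1 labelled WT. Both carry the label ApoE, so the background is shared by the control and no aorta from mice without it was compared. The labels do not spell out DKO or the ApoE allele; their isolation protocol, written for liver, speaks of liver-DKO mice and of 3 animals without linking them to libraries. The labels give neither the promoter that drives the deletion, nor how many aortas entered a library, nor the animals' age, sex or diet. With 1 library per group there was no test of DKO against WT, and every interval below is a 95% interval that covers counting error only.

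T cells recognise antigen through a receptor built from alpha and beta chains or from gamma and delta chains, which is held at the surface by the CD3 proteins. Naive T cells circulate through lymph nodes under the guidance of the chemokine receptor CCR7, and effector cells that enter tissue release the chemokine CCL5, granzymes and interferon gamma. In atherosclerosis, T cells of several kinds gather in the plaque and in the outer layer of the artery. Immature T cells of the thymus assemble their receptor genes with the RAG1 and RAG2 recombinase and with terminal transferase, which Dntt encodes, and are not a usual resident of the vessel wall. Mesothelium, the cell sheet over the serous surfaces of the body cavities, makes uroplakin 3b, mucin 16 and mesothelin.

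The label T cell was first checked against 16 genes shared by T cells, with levels given as CPM, the counts of a gene's unique molecular identifiers (UMIs) scaled to 1e6 UMIs of a subtype. The summed level of this list was 6823 CPM in TC2 and 6944 CPM in TC3, against 4636 CPM in TC1 and 112 CPM in all aortic cells not called T cells. All 85 TC2 cells and all 52 TC3 cells held at least 1 UMI of the list, with a median of 29 UMIs in TC2 and 10 in TC3. TC4 stood apart, with 1189 CPM, 22 of 26 cells with a UMI and a median of 3 UMIs. Against the aortic cells that are not T cells, all 16 genes stood more than 2-fold higher in TC2 after adding 20 CPM to both sides, 15 of 16 did in TC3 and 9 of 16 in TC4. Over all genes measured, 7.89% stood more than 2-fold higher and 10.2% lower in TC2, 9.49% and 8.43% in TC3, and 7.68% and 6.44% in TC4. Cells without T cell identity also hold such UMIs: 66 of 408 cells of AP2, a cluster that the authors call adipocytes, had 1 or more, at 124 CPM and a median depth of 1368 UMIs. By its transcripts AP2 was closer to fibroblasts, with the fibroblast list at 14553 CPM and the adipocyte list at 9.30 CPM.

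A UMI of Cd3d, Cd3e or Cd3g, which encode CD3 proteins, was found in 87.1% of TC2 cells, 59.6% of TC3 cells, 57.7% of TC4 cells and 62.8% of TC1 cells, against 4 of 408 cells of AP2. Depth differed among these groups, with median totals of 1470 UMIs in the DKO cells of TC3 and 6096 UMIs in the WT cells of TC2. When each cell was thinned to 500 UMIs, the shares were 30.6% in TC2, 32.7% in TC3, 42.3% in TC4 and 29.7% in TC1. At matched depth the CD3 share of TC2 was thus close to those of TC1 and TC3, and that of TC4 was the highest, on 26 cells.

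The receptor constant genes set TC2 apart from TC1 more clearly in summed UMIs than cell by cell. In TC2, 75 of 85 cells held UMIs of alpha or beta constant genes and none of gamma or delta, 3 held gamma or delta alone, 4 held both and 3 held neither, with 425 alpha-beta UMIs against 12 gamma-delta UMIs. All 12 came from the DKO cells, where 3 of 46 held gamma or delta alone and 4 held both. TC3 held 126 alpha-beta and 14 gamma-delta UMIs, and 26 of its 52 cells had alpha-beta UMIs alone. Here all 14 gamma-delta UMIs came from the WT cells, so neither subtype held them in both libraries. TC1 held 291 alpha-beta and 441 gamma-delta UMIs. Of its 145 cells, 31 held alpha-beta UMIs alone, 14 gamma-delta alone, 48 both and 52 neither. TC4 had 10 alpha-beta and 4 gamma-delta UMIs in all, and 15 of its 26 cells had none.

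The members made up 2.43% of the library labelled DKO (68 of 2800 cells; 95% interval 1.89 to 3.07%) and 3.39% of the library labelled WT (95 of 2800; 2.75 to 4.13%). The ratio of these shares, DKO over WT, was 0.716 (95% interval 0.516 to 0.988). Its direction depended on the denominator: among leukocytes, of which the B cells numbered 14 in DKO and 85 in WT, the ratio was 1.10 (0.790 to 1.51). Among T cells alone, the members were 68 of 130 in DKO and 95 of 178 in WT, close shares. The ratios that follow are again of all cells of a library. TC2 counted 46 DKO and 39 WT cells, a ratio of 1.18 (0.753 to 1.86), and TC3 counted 21 and 31 cells, a ratio of 0.677 (0.370 to 1.22). TC4 counted 1 DKO cell and 25 WT cells, a ratio of 0.04 (0.000974 to 0.244). Without TC4 the ratio for the members was 0.957 (0.674 to 1.36), an interval that includes 1. TC1 had a ratio of 0.747 (0.529 to 1.05). No cell of the deposited table has more than 2499 detected genes, and 7 members have 2400 or more, so the deepest cells may be missing from these shares.

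**Figure D1:**
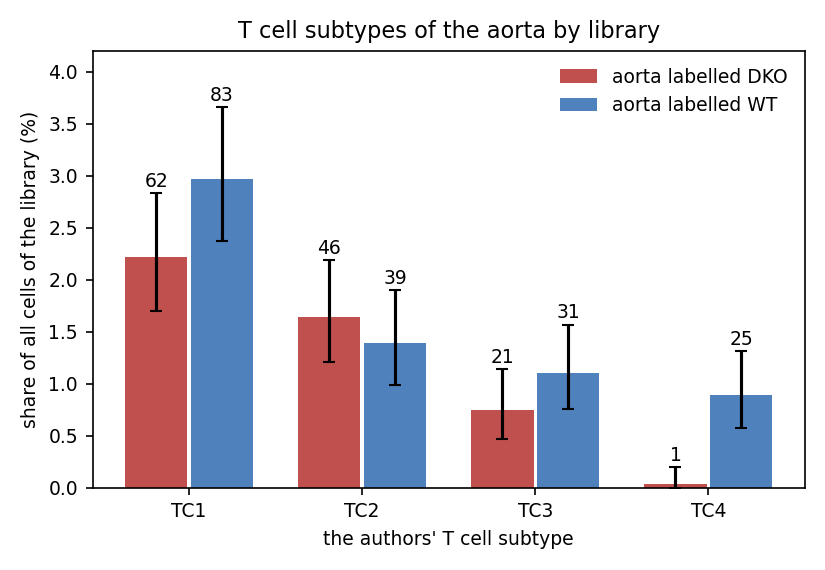
Share of the cells of each aorta library, in percent, for TC2, TC3, TC4 and TC1, with exact 95% binomial intervals and 1 library per label. The libraries differ most in TC4, with 1 cell labelled DKO and 25 labelled WT, while the intervals overlap for TC2, TC3 and TC1.

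TC2 carried the genes of circulating and of effector alpha-beta T cells. Ccl5 stood at 1469 CPM in the DKO cells (300 UMIs in 11 of 46 cells) and 3575 CPM in the WT cells (834 UMIs in 19 of 39 cells), against 28.2 CPM in TC1 and no UMI in TC3. Ccr7 stood at 382 CPM in the DKO cells (78 UMIs in 18 cells) and 381 CPM in the WT cells (89 UMIs in 17 cells), against 2.17 CPM in TC1 and no UMI in TC3. Lef1, a transcription factor of naive T cells, stood at 842 CPM in DKO and 634 CPM in WT, against 13.0 CPM in TC1 and 279 CPM in TC3. All 3 genes were thus high in both libraries, and Ccr7 was at nearly the same level in both. The subtypes are clusters made from these same cells and genes, so the comparisons among subtypes are a description and carry no test. In GRCm38 coordinates (GENCODE M21), Ccl5 lies at chr11:83525778-83530518 and Ccr7 at chr11:99144196-99155077, both on the minus strand, and Lef1 lies at chr3:131110471-131224356 on the plus strand.

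Against TC1, the ratio of levels in TC2 was 91.8 for Ccl5 (95% interval 53.5 to 173), 176 for Ccr7 (31.1 to 6.98e+03) and 56.1 for Lef1 (25.5 to 154). Gramd3 (ratio 31.3) and Prkch, a protein kinase C of lymphocytes (ratio 14.8), also led TC2. Against all aortic cells that are not T cells, the ratio was 526 for Trbc2, a beta chain constant gene (280 to 1113). The genes most typical of TC1 were low or missing in TC2. Il23r, the interleukin 23 receptor, had 6 UMIs in 2 TC2 cells against 547 UMIs in 87 of 145 TC1 cells, and Trdc, the delta constant gene, had 5 UMIs against 299. Fstl4 and Blk, a Src-family kinase, had no UMI in TC2 against 416 and 183 in TC1, so that they stood at least 132-fold and at least 58.0-fold lower.

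Of 8035 genes measured, 5.25% stood more than 2-fold above TC1 in TC2 and 10.2% more than 2-fold below. Of the 12 measured genes of the cytotoxic and natural killer list, all 12 stood above TC1 and 10 were past 2-fold, at a summed 3415 CPM against 87 CPM, of which Ccl5 alone made 2592 CPM in TC2, and a median log2 ratio of 1.69, where the median of all genes was -0.03. In the naive and central memory list, 6 of 8 stood above TC1, all past 2-fold, and 2 below, 1 of them past 2-fold, for a median of 1.74. That last gene was Il7r, the interleukin 7 receptor, at 361 CPM against 1223 CPM. Of the 12 type 17 and gamma-delta genes, all stood below TC1 and 11 were past 2-fold, at 729 CPM against 7154 CPM and a median of -3.50. The T cell receptor signalling list had 11 of 14 genes above TC1 and 7 past 2-fold (median 0.96). The tissue residency list had 7 of 9 below and 4 past 2-fold (median -0.60), among them Cxcr6, a chemokine receptor of tissue lymphocytes, at 80.0 CPM against 832 CPM. The cytotoxic and the type 17 lists thus moved as a whole, while the naive list was split.

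Coreceptor transcripts were sparse in TC2. Cd8a had 13 UMIs in 12 cells, Cd8b1 had 37 UMIs in 21 cells, and Cd4 had 16 UMIs in 10 cells, 1 of them labelled DKO and 9 labelled WT. No TC2 cell held UMIs of both Cd4 and a Cd8 gene. Foxp3, which defines regulatory T cells, had no UMI.

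**Figure D2:**
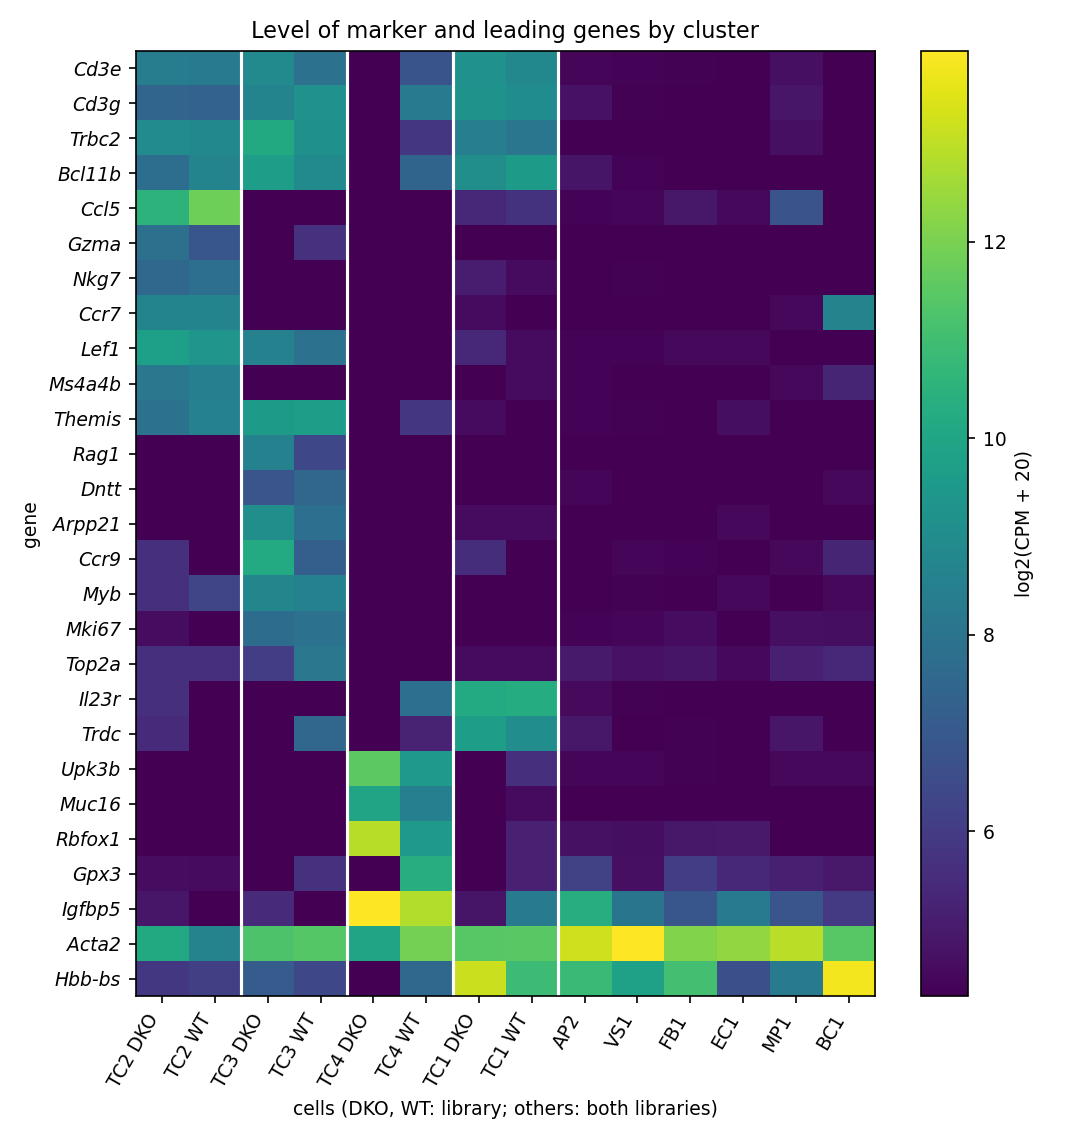
Levels of 27 genes, as log2 of CPM plus 20, in the T cell subtypes by library and in other aortic clusters. Ccl5, Ccr7 and Lef1 are high in TC2, and Rag1, Arpp21 and Themis in TC3, with Themis also present in TC2 at a lower level. Upk3b, Muc16 and Igfbp5 are high in TC4, where the DKO column is a single cell.

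Ccl5 and Ccr7 marked different cells of TC2. Ccl5 without Ccr7 was found in 28 cells (10 DKO and 18 WT), Ccr7 without Ccl5 in 33 cells (17 DKO and 16 WT), both in 2 cells and neither in 22 cells (18 DKO and 4 WT). This split was chosen after the values were seen, and the DKO cells were shallower, with a median of 4368 UMIs. Lef1 was found in 32 cells together with Ccr7 and in 7 cells together with Ccl5.

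The other effector and naive genes followed the split. In the cells with Ccl5 alone, Nkg7, a granule protein of killer lymphocytes, stood at 514 CPM against 16.0 CPM in the cells with Ccr7 alone. Eomes, a transcription factor of cytotoxic T cells, stood at 305 against 16.0 CPM, and the receptor subunit Il2rb at 558 against 74.8 CPM. Gzma, Gzmb and Gzmk, the granzyme genes, stood at 499, 127 and 216 CPM with Ccl5 and had no UMI in the cells with Ccr7. Gzma was found in only 6 TC2 cells, 1 of which held 39 UMIs, so its level rests on few cells. Ifng, interferon gamma, stood at 275 CPM with Ccl5 and had no UMI with Ccr7. In the other direction, Lef1 stood at 141 CPM with Ccl5 and 1447 CPM with Ccr7, Satb1, a chromatin organiser, at 573 and 3290 CPM, and Il7r at 59.6 and 368 CPM. S1pr1, the receptor that lets lymphocytes leave lymph nodes, stood at 81.9 and 203 CPM. Trbc2 was at 447 and 475 CPM, so the shared receptor gene was close in both sets. The smooth muscle transcript Acta2 stood at 663 and 646 CPM. The 22 cells with neither gene lay between these sets for Nkg7 (104 CPM), Ifng (113 CPM), Lef1 (254 CPM) and Satb1 (1234 CPM). They had no UMI of Eomes or the 3 granzyme genes, and stood above both for Il7r (744 CPM) and Acta2 (923 CPM). Also above both were St6galnac3 (575 CPM against 52.1 with Ccl5 and 21.4 with Ccr7), Icos (471 against 127 and 150) and Zbtb16 (424 against 74.4 and 0). St6galnac3 and Icos stood at 1117 and 1225 CPM in TC1, so these cells were not simply intermediate. UMIs of Il23r, Cd163l1 or gamma-delta genes were found in 8 DKO and 0 WT cells of TC2. How many of those 8 are among the 22 was not examined.

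**Figure D3:**
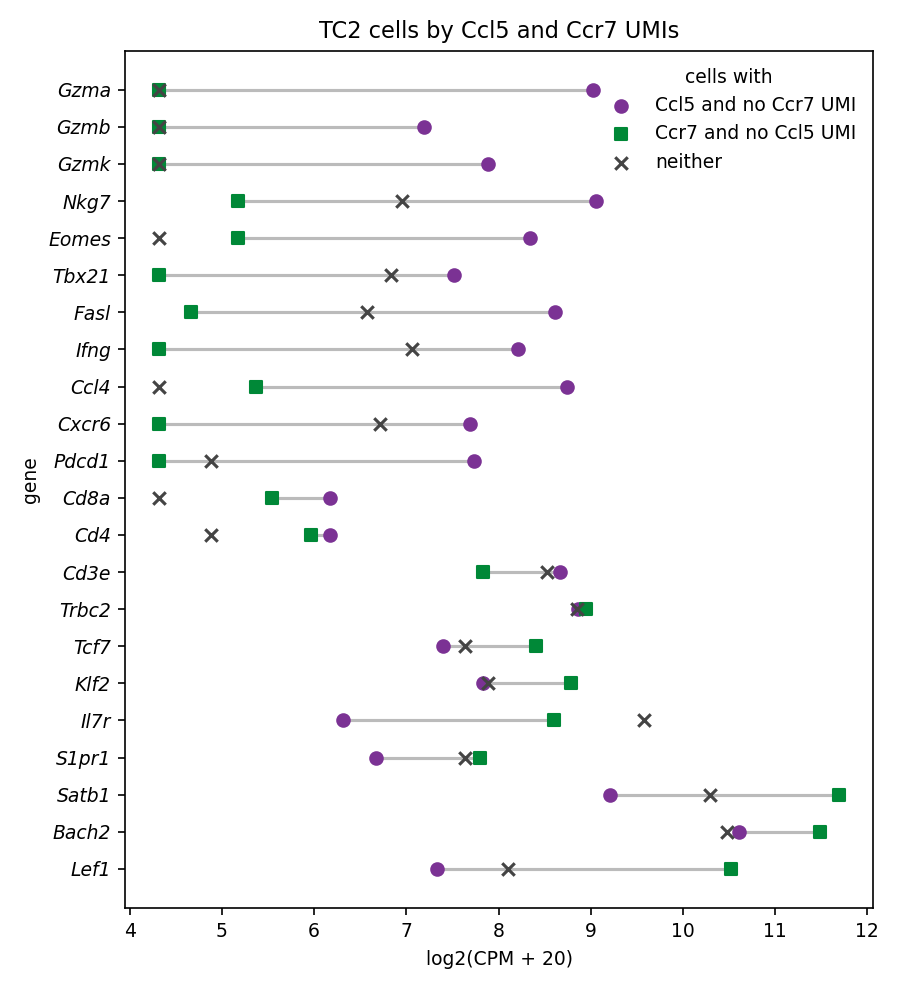
Levels of 22 genes, as log2 of CPM plus 20, in TC2 cells with a Ccl5 UMI alone (28 cells), a Ccr7 UMI alone (33 cells) or neither (22 cells). Granzyme genes, Nkg7, Eomes and Ifng are high in the Ccl5 cells, and Lef1 and Satb1 in the Ccr7 cells, while Il7r is highest in the cells with neither and Trbc2 is close in all 3.

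TC3 carried genes of immature T cells. Rag1, a subunit of the receptor gene recombinase, had 15 UMIs in 7 of 21 DKO cells and 4 UMIs in 3 of 31 WT cells, and none in TC1 or TC2. Dntt, terminal transferase, had 4 UMIs in 2 DKO cells and 10 UMIs in 7 WT cells, and none in TC1 or TC2. Rag1 had 4 UMIs in all 5292 aortic cells that are not T cells and none in the 695 cells of the smooth muscle cluster VS1, whose median depth was 2261 UMIs. These genes were present in both libraries at low counts. Rag1 lies at chr2:101638282-101649501 on the minus strand and Dntt at chr19:41029275-41059525 on the plus strand (GRCm38).

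Other genes of thymic T cells stood high as well. Arpp21, whose messenger is abundant in mouse thymocytes, stood at 522 CPM in the DKO cells (10 of 21) and 211 CPM in the WT cells (5 of 31), against 4.34 CPM in TC1. Themis, which is needed for thymic selection, stood at 736 CPM in DKO and 827 CPM in WT, against 2.17 CPM in TC1 and 290 CPM in TC2. In the TC2 cells with Ccl5 alone it stood at 551 CPM, so Themis was not confined to TC3. Myb, a transcription factor of progenitors, stood at 404 CPM in DKO and 357 CPM in WT, with no UMI in TC1, a ratio of at least 57.6. Rhoh, a GTPase of receptor signalling, stood at 1187 and 421 CPM. In the TC2 cells with Ccl5 alone, with Ccr7 alone and with neither, Rhoh stood at 104, 123 and 75.4 CPM. Gm4258, a transcript without an established role that overlaps the microRNA genes Mir181a-1 and Mir181b-1, stood at 2065 and 778 CPM and 150 times its TC1 level (57.1 to 557). Cells with Rag1, Rag2 or Dntt UMIs numbered 17 of 52, 7 in DKO and 10 in WT. Cd4 was found in 6 TC3 cells, a Cd8 gene in 9 and both in 3. Ptcra, the stand-in alpha chain of early thymocytes, had 1 UMI.

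Of 6932 genes measured, 11% stood more than 2-fold above TC1 in TC3 and 13.1% more than 2-fold below. In 1276 of these 1666 genes the 95% interval of the ratio left out 1. A thymocyte list, put together after the leading genes were seen and so no independent support, had 13 of 13 measured genes above TC1 and 12 past 2-fold, at 5952 CPM against 558 CPM and a median log2 ratio of 3.34, where the median of all genes was 0.02. All 5 measured genes of the cycling list were past 2-fold above, at 2148 CPM against 215 CPM (median 3.54). Of 8 genes of MHC class I presentation, 6 stood below and 4 were past 2-fold, at 1002 CPM against 3539 CPM (median -0.96). B2m, the shared light chain of these molecules, stood at 241 CPM against 734 CPM. Chemokine and cytokine receptors were below TC1 for 14 of 15 genes and past 2-fold for 12 (median -2.42), while Ccr9, which guides thymocytes and gut T cells, stood above at 549 CPM against 13.0 CPM. Ccl5, Ccr7, Icos and Il23r had no UMI in TC3, which at its 103832 UMIs allows up to 35.5 CPM by counting alone.

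TC3 was split again by cycling genes, after the values were seen. A UMI of Mki67, Top2a or Pclaf, genes of dividing cells, was found in 18 TC3 cells, 1 labelled DKO and 17 labelled WT. Their median depth was 2272.5 UMIs, against 1415 UMIs in the 34 cells without (20 DKO and 14 WT). The cells without such a UMI stood higher in the thymocyte list (8260 against 3127 CPM), in Ccr9 (910 against 107 CPM) and in Themis (1085 against 428 CPM). Dntt stood at 105 CPM without and 171 CPM with, and Cd3g at 262 and 771 CPM. The fibroblast list was at 1610 CPM without and 4584 CPM with. Label, cycling genes and depth moved together here and cannot be told apart.

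TC4 went against its label. Its leading genes were largely not those of T cells and are not markers of a single cell type. Upk3b, uroplakin 3b, had 12 UMIs in the 1 DKO cell and 37 UMIs in 18 of 25 WT cells, or 857 CPM over the subtype, against 15.2 CPM in TC1 and 1.13 CPM in aortic cells that are not T cells. Muc16, mucin 16, had 22 UMIs in 7 cells and stood 4.45e+03 times above the non-T cells (719 to 1.83e+05). Igfbp5, an insulin-like growth factor binding protein, was found in all 26 cells at 7870 CPM, 49.6 times TC1 (38.7 to 64.5). Chil1, a chitinase-like protein, was found in 23 cells at 1924 CPM, and Gpx3, a secreted glutathione peroxidase, in 22 cells at 1154 CPM. These 3 transcripts were thus spread over nearly the whole subtype. Also among the leaders were Myl7, an atrial myosin light chain (22 UMIs, 385 CPM), and Kdr, a VEGF receptor (19 UMIs, 332 CPM). Kdr made most of the endothelial list, which held 11 UMIs in TC4 cells with a Cd3 UMI and 14 in those without. In all aortic cells that are not T cells it had 16 UMIs (1.38 CPM), so it does not show endothelial identity here. Against cells that are not T cells, Fstl4 and Cd3g also led. Rbfox1, an RNA splicing factor, had 69 UMIs, but 32 of them came from the DKO cell. Upk3b lies at chr5:136038496-136046487 on the plus strand and Muc16 at chr9:18495455-18674530 on the minus strand (GRCm38).

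Of 6670 genes measured, 14.1% stood more than 2-fold above TC1 in TC4 and 20.2% more than 2-fold below. Only in 1211 of these 2290 genes did the 95% interval of the ratio leave out 1, so many of these folds lie within counting error. A mesothelial list, also put together after the leading genes were seen, had 10 of 10 measured genes past 2-fold above TC1, with a median log2 ratio of 3.60, where the median of all genes was -0.08. It summed to 3358 CPM in TC4, with a UMI in 26 of 26 cells, while in TC1 6 of 145 cells had a UMI, at 50 CPM. TC2 held 1 UMI of the list and TC3 held 2. The 16 pan T cell genes gave 14 measured, of which 13 stood below TC1 and 11 past 2-fold (median -2.13). Ptprc, the pan-leukocyte gene for CD45, had 2 UMIs in TC4.

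T cell transcripts were nonetheless above the level of other aortic cells. Cd3g had 16 UMIs in 10 of 26 cells, at 280 CPM, which is 231 times the level of the non-T cells (106 to 511). Il23r had 11 UMIs in 7 cells, and Fstl4, which was high in TC1, had 13 UMIs. All 25 WT cells held a mesothelial UMI, 22 of them also a pan T cell UMI and 15 also a Cd3 UMI, while the DKO cell held none of the T cell UMIs. Cells with and without a Cd3 UMI were close in depth, with medians of 1974 and 1924 UMIs. Both held mesothelial transcripts, at 2737 CPM in the 15 cells with and 4096 CPM in the 11 without. The DKO cell was 1 of these 11 and held 36 of their 107 mesothelial UMIs. Igfbp5 stood at 7826 and 7923 CPM, so both sets shared the stromal transcript. Whether these barcodes hold more than 1 cell was not tested.

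**Figure D4:**
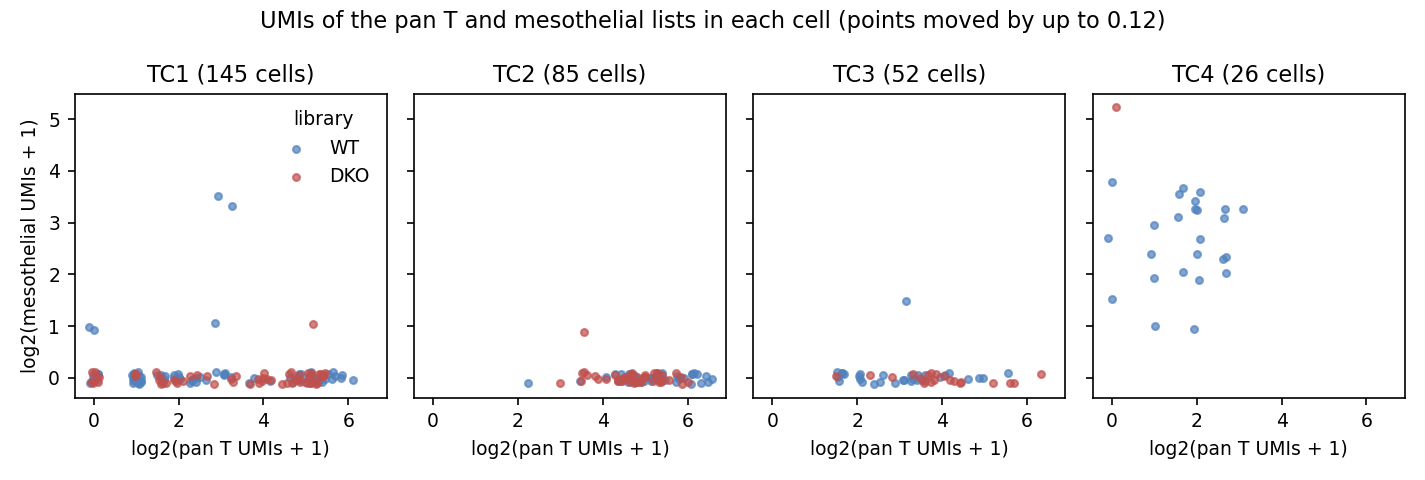
Mesothelial UMIs (vertical) against pan T cell UMIs (horizontal) of each TC1 to TC4 cell, both as log2 of the count plus 1, coloured by library, with points moved by up to 0.12 to show overlaps. TC2 and TC3 cells lie along the T cell axis, with 3 mesothelial UMIs between them, whereas all 26 TC4 cells carry mesothelial UMIs.

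Across 7487 genes, the summed profile of TC4 was about equally close to several clusters outside the T cells, with a Pearson's r of 0.756 for AP2, 0.749 for HS2, 0.747 for the smooth muscle cluster VS1 and 0.744 for FB1, while TC2 was closest to TC1 (0.855) and TC3 to TC2 (0.813). These correlations are over genes, which are not independent replicates, and the clusters share libraries. UMIs of other tissue were found in all 3 subtypes. Acta2, the smooth muscle actin gene, had a UMI in 690 of 695 cells of the smooth muscle cluster VS1 at 15700 CPM, and in 25 of 26 TC4 cells at 3673 CPM. The fibroblast list summed to 475 CPM in TC2, 2947 CPM in TC3 and 5562 CPM in TC4. The B cell list stayed between 39 and 154 CPM and the macrophage list between 19 and 35 CPM. The part of free RNA or of barcodes with more than 1 cell in the levels above was not tested.

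DKO was compared with WT within TC2 and TC3, which had 20 or more cells in each library. Epn1 and Epn2, the genes for epsins that the series' title names as a family, were too sparse to check the label: Epn1 had 5 DKO and 7 WT UMIs in TC2 and 2 and 1 in TC3, and Epn2 had 0 and 1 in TC2 and 2 and 0 in TC3. The reads are 3′ tags and may lie outside any deleted part. The isolation protocol speaks of liver-DKO mice, while the labels of the aorta libraries do not name the tissue of the deletion. If the deletion is confined to liver, counts in aortic T cells could not check the label at any depth.

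In TC2, the genes higher in the DKO library included transcripts abundant in stromal cells. Cald1, the actin-binding caldesmon, stood at 333 CPM in DKO (68 UMIs in 36 of 46 cells) and 42.9 CPM in WT (10 UMIs in 8 of 39 cells), a ratio of 7.77 (3.98 to 16.9). Cped1 stood at 137 CPM in 23 cells against 8.57 CPM in 2 cells, a ratio of 16.0 (4.03 to 139). Mast4, a kinase, had 36 UMIs in 14 DKO cells and 3 UMIs in 3 WT cells, a ratio of 13.7 (4.33 to 69.6), and 1 DKO cell held 14 of the 36. St6galnac3, a sialyltransferase, stood at 309 against 38.6 CPM, with a 95% interval of the ratio from 3.96 to 18.3. Cald1, Cped1 and Mast4 were abundant outside T cells, at 2603, 741 and 540 CPM in the smooth muscle cluster VS1. Mast4 was also uneven within TC2, at 14.9 CPM in the Ccl5 cells, 112 in the Ccr7 cells and 151 in those with neither. In the same sets Cald1 stood at 127, 176 and 245 CPM, and Cped1 at 59.6, 58.7 and 104 CPM. St6galnac3 had no UMI there and stood at 1117 CPM in TC1 (85 of 145 cells), 9.63 CPM in TC3 and 61.8 CPM in the endothelial cluster EC1. All 4 differences are wider than counting error, but there is no replicate to set them against.

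Of the 2547 genes measured between the libraries in TC2, 2.94% stood more than 2-fold higher in DKO and 3.3% more than 2-fold lower. The smooth muscle list had 7 of 7 genes past 2-fold higher, at 2547 CPM in DKO against 776 CPM in WT and a median log2 ratio of 1.52, where the median of all genes was -0.08. Acta2 stood at 1121 and 377 CPM. Gm42418, a transcript whose reads overlap a ribosomal RNA repeat, stood at 37263 and 12624 CPM. None of 16 pan T cell genes was past 2-fold, with 6322 CPM in DKO and 7262 CPM in WT (median -0.14), and none of 8 naive genes was. Of 13 receptor signalling genes, 12 stood lower in DKO, 1 past 2-fold, at 3536 against 5234 CPM (median -0.43). Cd28, the main costimulatory receptor, stood at 402 CPM in DKO and 776 CPM in WT, a ratio of 0.518 (0.394 to 0.675). Fyn, a kinase of receptor signalling, stood at 676 and 1243 CPM. The pan T cell and naive genes thus stood within 2-fold while smooth muscle transcripts did not, and the part of these transcripts in the other differences was not tested. The libraries also held different mixes of TC2 cells: Ccl5 alone marked 10 DKO and 18 WT cells, and 18 DKO and 4 WT cells held neither Ccl5 nor Ccr7. Fyn stood at 1489 CPM in the Ccl5 cells against 748 CPM in the Ccr7 cells, and St6galnac3 at 575 CPM in the cells with neither, so the mix moved with these differences; its part was not tested.

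Among the genes lower in DKO TC2 cells, Aopep, an aminopeptidase, stood at 44.1 CPM (8 cells) against 240 CPM (21 cells), a ratio of 0.184 (0.0798 to 0.374). The unnamed transcript 2310016D23Rik stood at 44.1 CPM in 7 cells against 206 CPM in 20 cells, a ratio of 0.214 (0.0924 to 0.441). Both were spread over many WT cells, and Aopep was also higher in the Ccl5 cells (313 CPM) than in the Ccr7 cells (74.8 CPM), of which the former were more frequent in WT. The heat shock genes Hspa1b and Hspa1a were not: Hspa1b had 7 UMIs in 5 DKO cells and 81 UMIs in 8 WT cells, 35 of them in 1 cell, and Hspa1a had 19 UMIs in 7 DKO cells and 82 UMIs in 7 WT cells. Their ratios were 0.0987 (0.0385 to 0.213) and 0.265 (0.152 to 0.440). The cytotoxic list stood at 2248 CPM in DKO and 4437 CPM in WT, with 5 genes higher and 6 lower, and Ccl5, which leads TC2, holds much of that sum.

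In TC3, Rnf145, a ubiquitin ligase of the endoplasmic reticulum, stood at 1211 CPM in DKO (51 UMIs in 17 of 21 cells) and 32.4 CPM in WT (2 UMIs in 2 of 31 cells), a ratio of 37.4 (9.82 to 317). Mier1, a transcriptional corepressor, stood at 5199 CPM in 20 DKO cells and 810 CPM in 21 WT cells, a ratio of 6.42 (4.70 to 8.91). Its first bases overlap Wdr78 on the other strand, and the sources used here do not say whether counting used strand. Ccr9 stood at 1163 CPM in 14 DKO cells and 130 CPM in 7 WT cells, a ratio of 8.97 (4.21 to 21.9). Plcl1, a phospholipase C-like protein, stood at 736 and 64.8 CPM, a ratio of 11.4 (4.01 to 44.3). Rnf145 and Ccr9 thus differed in the share of cells as well as in level.

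Lower in DKO TC3 cells were Igfbp4, an insulin-like growth factor binding protein, with no UMI in DKO and 51 UMIs in 16 WT cells (at least 11.6-fold lower), and C3, complement component 3, with 1 and 39 UMIs. The histone gene Hist1h2ap had 2 and 44 UMIs. Tox, a transcription factor of thymic selection, had 4 UMIs in 2 DKO cells and 98 UMIs in 5 WT cells, of which 1 cell held 74. Of the 644 genes measured between the libraries in TC3, 12% stood more than 2-fold higher in DKO and 13.8% more than 2-fold lower. Pan T cell genes stood higher for 11 of 14, with 4 past 2-fold, at 9685 CPM in DKO and 5073 CPM in WT (median log2 ratio 0.84, against -0.10 over all genes). Activation and immediate early genes stood lower for 12 of 14, with 7 past 2-fold, at 4961 against 11263 CPM (median -0.98). Junb, an AP-1 subunit, stood at 427 CPM in 12 DKO cells and 2010 CPM in 24 WT cells, a ratio of 0.213 (0.122 to 0.350).

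The cycling cells of TC3 were nearly all WT, so the comparison was repeated without them, with 20 DKO and 14 WT cells. Rnf145 kept 50 UMIs against 1 (ratio 27.6, 4.73 to 1.11e+03), Mier1 stood at a ratio of 5.19 (3.34 to 8.46), Ccr9 at 9.01 (2.91 to 45.2) and Junb at 0.313 (0.162 to 0.585). The counts of Igfbp4 fell to 0 and 1 UMIs, of C3 to 1 and 1, and of Hist1h2ap to 0 and 2. Dcn, a fibroblast proteoglycan, went from 12 against 107 UMIs to 12 against 6, a ratio of 1.10 (0.383 to 3.58). The genes past 2-fold numbered 60 of 270 measured, against 166 of 644 with all cells. The higher genes named here thus held without the cycling cells, whereas Igfbp4, C3 and Hist1h2ap could no longer be compared. The pan T cell and activation lists were not compared again between the libraries without these cells. Over both libraries, the pan T cell list stood at 8137 CPM in TC3 cells without a cycling UMI and 5483 CPM in those with. The activation and immediate early list stood at 6877 and 10945 CPM. The part of the cycling cells in the list differences was thus not tested.

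**Figure D5:**
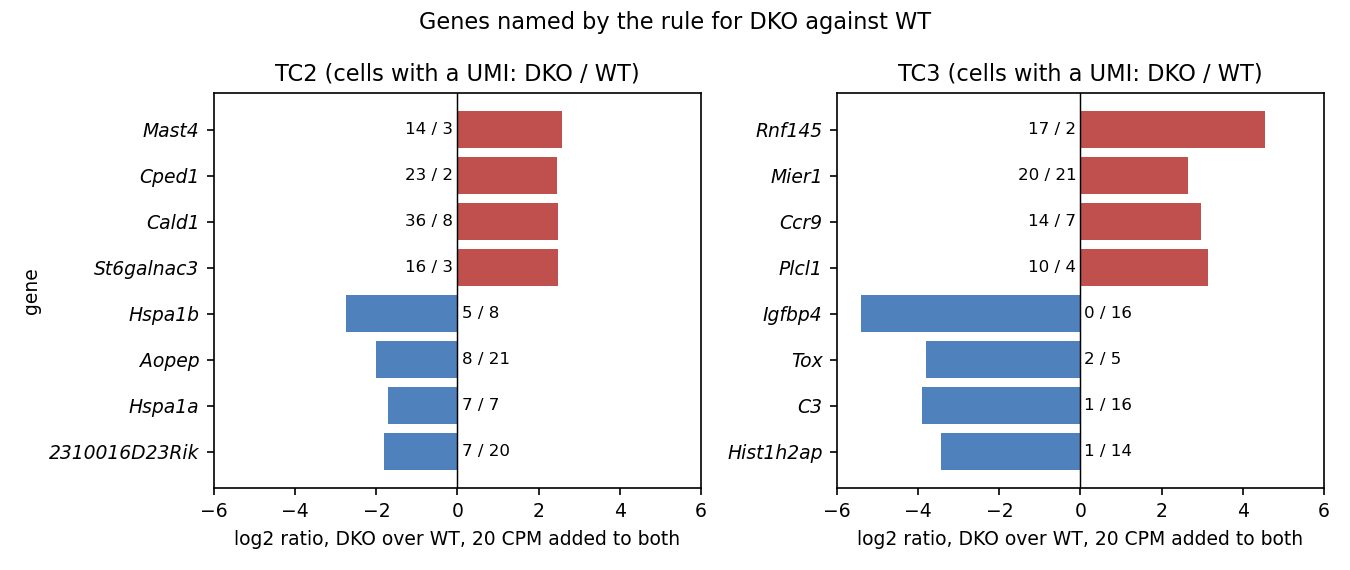
Bars give the log2 ratio of levels, DKO over WT, after adding 20 CPM to both, for 4 genes in each direction in TC2 and in TC3, with the number of cells with a UMI (DKO / WT) beside each bar. Cped1, Cald1 and Rnf145 are spread over many DKO cells, while Hspa1a, Hspa1b and Tox rest on few cells.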

How the data were processed

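The 2 single-cell RNA-seq libraries of aorta, 1 labelled DKO and 1 labelled WT, were analysed. The submitters' processing notes name Cell Ranger 7.1.0 and the mouse build mm10. The authors deposited raw UMI counts for 24309 genes and 5600 cells, and types and subtypes were taken from their metadata, in which 28 other columns were not used. The sources used here do not say how cells and doublets were filtered, and no doublet caller was run here. In the deposited values, cells hold at least 499 UMIs and 201 to 2499 genes, and 4 barcodes occur in both libraries, none among the members.

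UMIs were summed per subtype and library and given as CPM with exact Poisson intervals. Ratios have exact conditional binomial intervals and shares Clopper-Pearson intervals, all at 95%. Past 2-fold means after adding 20 CPM to both sides; genes needed 10 summed UMIs between subtypes and 30 between libraries. Where a group held no UMI of a gene, 3 counts over that group stood in for it, and the fold is called at least. The 3 subtypes total 437476 (TC2), 103832 (TC3) and 57178 (TC4) UMIs. Calculations used Python 3.11.15, numpy 2.4.6, pandas 2.3.3 and scipy 1.17.1, checked on simulated data.

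Named genes were the 10 leading genes of each subtype, the 5 most below TC1, up to 4 in each direction between libraries (ranked by the interval bound nearest to 1, leaving out genes that lead the subtype) and members of the gene lists. Members and lists were chosen with earlier results of these data known. The thymocyte and mesothelial lists and the splits of TC2, TC3 and TC4 were chosen after values were seen. All members together were not compared between libraries, since the leading genes of TC4 are not those of T cells. Coordinates are from GENCODE M21 on GRCm38.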

Additional observations from a re-analysis of the deposited data

Results flagged for a closer look

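For 2 genes the DKO and WT libraries differed in opposite directions in TC2 and TC3, each with an interval on the other side of 1. Both were picked after the values were seen, each group is 1 library, and the difference between the subtypes was not tested. Of all 2547 genes measured in TC2, 2.94% stood more than 2-fold higher in DKO and 3.3% lower. Of the 644 in TC3, 12% stood higher and 13.8% lower, so some opposite pairs can arise among so many genes. The cycling TC3 cells, 1 DKO and 17 WT, were not left out for these 2 genes. Ier3, an immediate early response gene, stood higher in DKO in TC2, at 122 against 47.2 CPM (25 and 11 UMIs; ratio 2.60, 1.23 to 5.85). In TC3 it stood lower, at 237 against 567 CPM (10 and 35 UMIs; ratio 0.418, 0.185 to 0.864). Plcl2, a phospholipase C-like protein of lymphocytes, stood lower in DKO in TC2, at 78.4 against 197 CPM (16 and 46 UMIs; ratio 0.397, 0.210 to 0.715). In TC3 it stood higher, at 475 against 162 CPM (20 and 10 UMIs; ratio 2.93, 1.31 to 7.01).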

How the results depend on the processing

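The members' share ratio, 0.716, was 1.10 with leukocytes as the denominator, a reversed direction (the authors' B cells numbered 14 in DKO and 85 in WT), and 0.2 without cells with 3 or more UMIs of other types, on 1 and 5 cells. Genes past 2-fold against TC1 fell with 50 CPM added from 1245 to 581 in TC2, 1666 to 825 in TC3 and 2290 to 1135 in TC4; at a minimum of 30 UMIs they were 886 in TC3 and 1055 in TC4. Between libraries, TC2 had 159 such genes, 734 with no minimum and 87 with 50 CPM; TC3 had 166, 4191 with no minimum and 60 without cycling cells. Shares of cells with a Cd3 UMI at 500 UMIs were 30.6% in TC2, 32.7% in TC3 and 29.7% in TC1, with TC4 above all of them. Of the named genes' values, 455 stayed within counting error of the reported value, 7 moved beyond it and 7 reversed. A setting that changed only the UMI minimum could not change a gene's ratio, so values under such a setting stayed by construction. The 455 include such values and are thus no measure of stability on their own. A gene with no UMI on 1 side had an open or very wide interval, so its value could hardly count as moved. The wide intervals of other sparse genes also allowed large moves. Values of genes that fell under the UMI minimum in a setting were not counted. Reversed log2 ratios to TC1 were those of haemoglobin genes, of which TC1 holds 1965 Hbb-bs UMIs in a single cell. Without TC1 cells rich in haemoglobin, Hba-a2 in TC2 was 0.18, Hbb-bs 0.44 in TC3 and 1.18 in TC4, and Hba-a1 in TC4 0.23. Without cells with 3 or more macrophage, B cell, endothelial or erythroid UMIs, Hbb-bs was 0.33 in TC3 and 1.04 in TC4, and Hba-a1 in TC4 0.49. No paired analysis was possible because each group has 1 library. Not run were the comparison of all members weighted alike, gene comparisons without the wider set of possible doublets (under 10 cells left on a side) and TC4 in DKO alone (1 cell). The few UMIs of the small subtypes limit TC4 most: 1079 of its 2290 genes past 2-fold have intervals that include 1, against 390 of 1666 in TC3 and 0 of 1245 in TC2.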

Other observations

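The sterol handling list stood above TC1 for 6 of 9 measured genes in TC2, 8 of 9 in TC3 and 5 of 9 in TC4, with 1, 3 and 1 genes past 2-fold. The interferon-stimulated list stood above TC1 for 5 of 10, 4 of 10 and 7 of 9 genes, with 1, 3 and 4 past 2-fold. The shares of all genes past 2-fold above TC1 were 5.25% in TC2, 11% in TC3 and 14.1% in TC4. Abcg1, a cholesterol exporter, stood at 158 CPM in TC2 against 41.3 CPM in TC1, a ratio of 3.82 (2.27 to 6.73). Soat1, which esterifies cholesterol, stood at 29.7 CPM in TC2, 250 CPM in TC3 and 76.0 CPM in TC1. Gbp2, an interferon-induced GTPase, stood at 140 CPM in TC4 from 8 UMIs, against 21.7 CPM in TC1. These 3 genes were picked from the gene lists after their values were seen, and they are not tests.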
